A study of Mus musculus with 5 samples.

Results

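A rule meant to find macrophages and dendritic cells of the mouse kidney picked 302 of 16359 nuclei in 5 single-nucleus RNA-seq libraries, here called the selected nuclei. A nucleus was selected when it had at least 200 detected genes and at least 2 unique molecular identifiers (UMIs, each counting 1 captured RNA molecule) summed over 10 immune genes: Ptprc, Csf1r, C1qa, C1qb, Adgre1, Mrc1, Cd74, H2-Aa, Cx3cr1 and Dock2. That sum also had to exceed the sum over 7 genes of other kidney cells, namely Flt1, Emcn, Ptprb, Lama2, Pdgfrb, Slc12a1 and Aqp2. The levels of these genes chose the nuclei, so they are described here and not tested.

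The mice were males of 10 to 12 weeks that carried Six2-TGC, Rosa26rtTA and pTRE-H2BeGFP and were kept on doxycycline food at 625 mg/kg from shortly after birth. In this system a GFP-tagged histone is switched on in the Six2 lineage, which gives rise to the nephron epithelium, and nuclei were sorted on GFP before capture. The first library held GFP negative nuclei of uninjured kidney, which the labels call adult non-nephron. The other 4 held GFP positive nuclei, called adult nephron: 1 without injury, and 1 from each of 3 times, 64 h, 96 h and 28 d, that followed a clamping of both renal pedicles and the return of blood flow (ischaemia-reperfusion injury, IRI). Serum creatinine at harvest was 0.122 mg/dL for both uninjured libraries, 0.375 at 64 h, 0.312 at 96 h and 0.144 at 28 d. Blood urea nitrogen was 26.1 mg/dL for both uninjured libraries and then 37.0, 91.8 and 31.7 mg/dL. The identical serum values mean that the uninjured libraries were not treated as separate animals, and the sample labels state no injury where the series' design text speaks of sham surgery. All selected nuclei of a macrophage or dendritic kind would lie outside the lineage that the GFP positive gate was meant to keep. No GFP negative library of injured kidney was analysed, so at 28 d the injury and the sort gate cannot be told apart when that library is set against the uninjured GFP negative one.

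Each group was 1 library. There was therefore no replicate error and no test between groups, and every interval is a 95% interval for counting error only, Poisson for UMIs and Clopper-Pearson for shares of nuclei. The libraries kept 3012 to 3508 nuclei each, with 1922002 to 7153971 UMIs in all and a median of 507 to 1793.5 UMIs per nucleus. The shallowest was the 96 h library. No doublet caller was applied. Between 9 and 20 cell barcodes were shared by each pair of libraries, and 1 barcode was selected in both uninjured libraries, with 445 UMIs in the GFP negative and 2145 in the GFP positive one.

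Kidney macrophages and dendritic cells are mononuclear phagocytes that lie between the tubules. They sample and clear debris, present peptides on MHC class II to T cells, make complement component C1q and are maintained by growth factors such as colony-stimulating factor 1. After ischaemic injury monocytes enter from the blood and the phagocytes are known to pass from inflammatory to reparative states.

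The label was first checked with leukocyte genes that the rule did not use. These were 111 genes out of 134 from 8 lists (macrophage, dendritic, monocyte, MHC class II, myeloid signalling and transcription, T and NK cell, B and plasma cell, and neutrophil and mast cell genes). They were kept because they lay under 5 counts per 1000000 UMIs (CPM) in unselected nuclei of the uninjured GFP positive library. A selected nucleus with at least 3 UMIs over these genes is called supported, and the others are called rule-only. In the uninjured GFP negative library 89 of 119 selected nuclei were supported, and at 28 d 27 of 63 were. In the uninjured GFP positive library 3 of 66 were supported, at 64 h 5 of 29 and at 96 h 2 of 25. The data therefore went against the label for most selected nuclei of all 4 GFP positive libraries. Over the series 126 of 302 selected nuclei had at least 3 UMIs of the 111 genes and 176 did not reach that level. The genes were not screened for a low level in injured nuclei. At 64 h 2 of the 5 supported nuclei had a UMI of Ptprc or Dock2.

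Supported nuclei are a range cut from a count, not a type. The cut at 3 UMIs nevertheless fell where few nuclei lay: 6 selected nuclei had 2 such UMIs and 5 had 3 in the GFP negative library, and 3 and 4 did at 28 d. Before any split, 74.8% of selected nuclei in the GFP negative library, 4.55% in the uninjured GFP positive library, 17.2% at 64 h, 8.00% at 96 h and 42.9% at 28 d had at least 3 of these UMIs. Of unselected nuclei 2.80%, 0.436%, 1.44%, 0.283% and 0.433% did, so selected nuclei had the higher share in each library. In the uninjured GFP positive library the low share of unselected nuclei is partly set by the choice of the 111 genes. Selected and unselected nuclei also differed in depth, with medians of 579 and 978 UMIs in the GFP negative library. In the GFP positive libraries the medians were 2414 and 1780, 2595 and 1283, 813 and 506, and 1220 and 979.5 UMIs. The part of depth in these shares was not tested. After the split the low level of rule-only nuclei is fixed by their definition and is a description only. It was 320, 107, 143, 178 and 212 CPM in the same order, and 15 of 30, 45 of 63, 17 of 24, 19 of 23 and 27 of 36 rule-only nuclei had no UMI of any of the 111 genes. Supported nuclei, which were chosen on them, held 11656 CPM in the GFP negative library and 6351 CPM at 28 d.

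**Figure D1:**
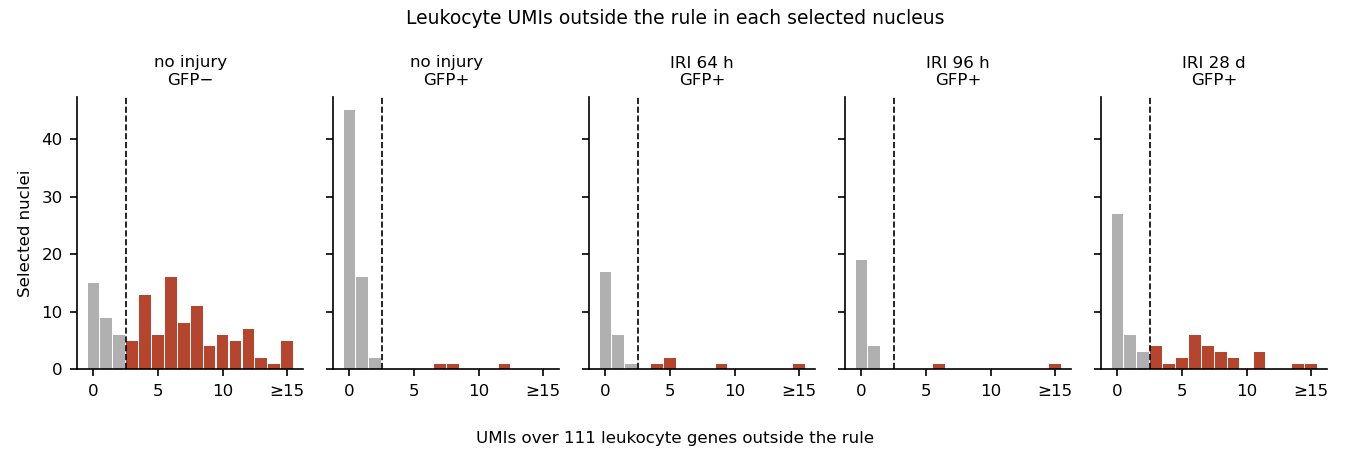
Number of selected nuclei (vertical axis) by their UMIs over the 111 leukocyte genes outside the rule (horizontal axis, 15 and more in the last bin) in each library; the dashed line is the limit of 3 UMIs, with supported nuclei in red. The GFP negative and 28 d libraries hold 89 and 27 nuclei to the right of the line, and the other libraries hold 3, 5 and 2.

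Short stretches of promoter are printed below for a few genes. They were picked because they hold the letters searched for, so they do not stand for the promoters of all genes that lead the supported nuclei. Spi1 encodes PU.1, a factor of the ETS family that binds purine-rich sites with a GGAA core and sets the myeloid gene programme, so the promoters of leading genes were searched for GAGGAAG or its reverse complement CTTCCTC, on both strands, from 250 bases before to 50 bases after the RefSeq start on GRCm38.p6. The stretches below are from 3 leading genes whose match lies before the start, printed 5′ to 3′ on the strand of the gene, with the match in capitals. F630028O10Rik (chrX:96239818-96239876, plus strand) and Gm26740 (chr10:22306549-22306607, minus strand) are long noncoding RNAs annotated as antisense, and Inpp5d (chr1:87620266-87620311, plus strand) encodes SHIP1, a lipid phosphatase of blood cells.
F630028O10Rik: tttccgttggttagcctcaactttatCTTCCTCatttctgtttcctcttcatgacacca
Gm26740: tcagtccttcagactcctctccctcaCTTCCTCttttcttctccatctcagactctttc
Inpp5d: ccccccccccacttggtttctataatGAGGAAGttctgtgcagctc
The match ended 76, 193 and 14 bases before the start, in that order. Of the 15 genes that led all selected nuclei of the GFP negative library, 1 of 10 with a listed promoter held the letters (10%), and at 28 d 3 of 12 did (25%). Over all genes with a promoter the share was 15.4% (4152 of 27025), and over the leading genes of supported nuclei it was 1 of 10 (10%) and 4 of 12 (33.3%). Among 30 leading genes of selected nuclei 5 of 19 (26.3%) and 4 of 24 (16.7%) held the letters, so the order of the libraries turned with the number of genes taken. A match is only a match of letters.

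Ptprc (CD45, the phosphatase on all leukocytes; 1:138062861-138175708, minus strand, mm10) and Dock2 (a haematopoietic activator of Rac; 11:34226815-34783892, minus strand) marked the supported nuclei. In the GFP negative library 49 of 89 supported nuclei had a UMI of Ptprc and 45 had one of Dock2, and at 28 d 13 of 27 had each. Endothelium-rule nuclei, picked with Flt1, Emcn and Ptprb, were taken only from nuclei that the rule did not select. Ptprc and Dock2 belong to the rule, so the distance between endothelium-rule and supported nuclei is partly fixed by the choice. Endothelium-rule nuclei had Ptprc in 7 of 626 and Dock2 in 0 of 626 in the GFP negative library. Their median depth there was 550.5 UMIs against 503 in supported nuclei. At 28 d they had Ptprc in 1 of 43 and Dock2 in 0 of 43, at 1568 UMIs against 1040. Of the 110 selected nuclei of all libraries with a UMI of either gene, 98 were supported (89.1%). Of the 192 without one, 28 were supported (14.6%). These were 18 of 41 in the GFP negative library and 10 of 151 in the 4 GFP positive libraries.

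The antigen presentation genes of the rule were spread over both classes. Cd74, the invariant chain that escorts MHC class II, had a UMI in 42 of 89 supported nuclei of the GFP negative library and in 7 of 27 at 28 d. H2-Aa, an MHC class II alpha chain, did in 33 of 89 and 11 of 27. In rule-only nuclei Cd74 had a UMI in 38 of 176 and H2-Aa in 26 of 176 over all libraries, so a UMI of either gene did not separate the classes as Ptprc and Dock2 did. The 14 nuclei that were selected on Cd74 alone included no supported nucleus.

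C1qa and C1qb, rule genes that encode 2 chains of C1q, lay mostly in supported nuclei, C1qa more so than C1qb. C1qa had a UMI in 26 of 89 supported nuclei without injury and 6 of 27 at 28 d, and in 1 of 176 rule-only nuclei. C1qb did in 15 of 89 and 3 of 27, and in 4 of 176 rule-only nuclei. The mannose receptor gene Mrc1 had a UMI in 18 of 89 and 7 of 27, and Adgre1, which encodes the macrophage antigen F4/80, in 11 of 89 and 7 of 27. In rule-only nuclei Mrc1 had one in 7 of 176 and Adgre1 in 9 of 176. These 4 macrophage genes were each seen in under 1 in 3 supported nuclei of either library.

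Cx3cr1, and in the uninjured libraries also Csf1r, both named as macrophage genes, had a UMI in a larger share of rule-only than of supported nuclei. These shares are at unequal depth. Rule-only nuclei had a median of 2500 UMIs against 503 in supported nuclei of the GFP negative library, and 1266 against 1040 at 28 d. Cx3cr1 (the fractalkine receptor; 9:119901616-120069879, minus strand) had a UMI in 10 of 30 rule-only nuclei of the GFP negative library, 36 of 63 of the uninjured GFP positive library, 14 of 24 at 64 h, 20 of 23 at 96 h and 23 of 36 at 28 d. In supported nuclei it had one in 6 of 89 and 2 of 27 in the GFP negative and 28 d libraries. Csf1r, the receptor of colony-stimulating factor 1 (18:61100598-61132149), had a UMI in 18 of 30 and 28 of 63 rule-only nuclei of the uninjured libraries and in 2 of 24, 3 of 23 and 4 of 36 after injury, against 13 of 89 and 4 of 27 supported nuclei. Among unselected nuclei, 2.42% to 3.05% had a UMI of Cx3cr1 in each of the 5 libraries, so this gene's low level was spread through every library. Of the 103 nuclei selected on Cx3cr1 and Csf1r without another rule gene, 2 were supported. Of the 64 selected on Cx3cr1 alone 1 was, and of the 18 on Csf1r alone none was.

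**Figure D2:**
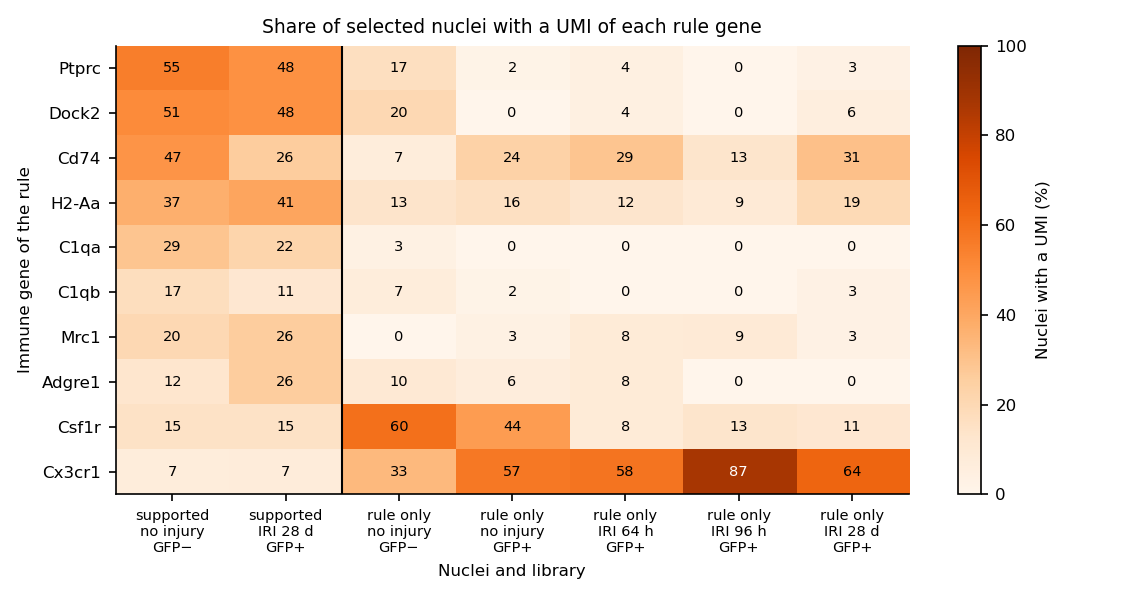
Share of nuclei (colour and number, in %) with a UMI of each immune gene of the rule (rows), for supported nuclei of the GFP negative and 28 d libraries and rule-only nuclei of all 5 libraries (columns). Ptprc and Dock2 stand out in the columns of supported nuclei, and Cx3cr1 or Csf1r in those of rule-only nuclei. The shares are not adjusted for depth, which differs between the columns.

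Rule-only nuclei held RNA of proximal tubule genes in every library. Genes of a proximal tubule list (transporters and enzymes such as Slc34a1 and Lrp2) held a median of 1.99%, 2.77%, 1.31%, 1.53% and 2.48% of the UMIs of a rule-only nucleus in the GFP negative, uninjured GFP positive, 64 h, 96 h and 28 d libraries. Unselected nuclei had 0.164%, 2.58%, 1.27%, 1.17% and 2.33%. In the 4 GFP positive libraries the medians thus lay close to those of the unselected nuclei, which the labels call adult nephron. In the GFP negative library the rule-only median lay far above it. Supported nuclei had a median of 0.252% in the GFP negative library and 1.03% at 28 d, and the endothelium-rule nuclei of these libraries had 0.188% and 1.54%. In the uninjured GFP positive, 64 h and 96 h libraries endothelium-rule nuclei had 2.16%, 0.797% and 1.46%. At 96 h this rests on 5 nuclei. In the uninjured GFP positive and 96 h libraries these medians lay near the rule-only ones, so the share alone does not name the kind of nucleus there.

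Genes that led the rule-only nuclei over the unselected ones included tubule genes in the uninjured libraries. Slc22a7, an organic anion transporter, was at 700.0 CPM in the 30 rule-only nuclei of the GFP negative library, with 46 UMIs in 15 nuclei and a ratio of 7.19 to unselected nuclei. Cyp7b1, an oxysterol hydroxylase of the proximal tubule, had the second highest ratio in the uninjured GFP positive library, after C8a (6.29), with 368 UMIs in 21 of 63 nuclei and a ratio of 4.83. The gene with the highest ratio rested on few nuclei in 3 libraries: Itgae on 3 in the GFP negative library, Ucma on 1 at 64 h and C2cd5 on 3 at 28 d. H2-Ab1, an MHC class II beta chain outside the rule, had 10 UMIs in 8 of 24 rule-only nuclei at 64 h (ratio 10.7, 4.94 to 20.9). Whether the same nuclei held another class II gene was not tested.

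Nuclei on both sides of the threshold were compared next. Selected nuclei with an immune sum of exactly 2 UMIs, just inside it, were supported in 20 of 40 cases in the GFP negative library, 0 of 43 in the uninjured GFP positive library, 1 of 19 at 64 h, 1 of 17 at 96 h and 11 of 36 at 28 d. Just outside it, nuclei with a sum of 1 reached 3 support UMIs in 24 of 299, 1 of 299, 2 of 194, 1 of 165 and 3 of 275 cases. Nuclei with a sum of 3 or more did in 69 of 79, 3 of 23, 4 of 10, 1 of 8 and 16 of 27. Outside the selection, 25 nuclei of the GFP negative library, 7 of the 64 h library and 3 of the 28 d library had at least 6 support UMIs. Of the 25 nuclei 20 had an immune sum under 2. In the 7 nuclei at 64 h, more than the 5 supported there, Runx1 was the gene with most of these UMIs.

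Across the libraries the share of selected nuclei was 3.57% (2.96 to 4.25) in the GFP negative library, 1.88% (1.46 to 2.39) in the uninjured GFP positive one, 0.963% (0.646 to 1.38) after 64 h, 0.781% (0.506 to 1.15) after 96 h and 1.91% (1.47 to 2.44) after 28 d. By that count the 28 d library and its uninjured GFP positive counterpart differed by less than counting error. The share of supported nuclei gave another order. It was 2.67% (2.15 to 3.27) in the GFP negative library, 0.0855% (0.0176 to 0.250) without injury in the GFP positive gate, 0.166% (0.0539 to 0.387) after 64 h, 0.0625% (0.00757 to 0.225) after 96 h and 0.818% (0.540 to 1.19) after 28 d. Within the GFP positive gate the 28 d share was 9.57 times that without injury (2.94 to 49.3). The 64 h and 96 h shares were 1.94 times (0.378 to 12.5) and 0.730 times (0.0610 to 6.38) that value, and their intervals include 1, so no difference between those 3 libraries was detectable at this depth.

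The share of nuclei that pass a GFP positive gate without carrying the lineage also bears on these counts. Endothelium-rule nuclei, which likewise lie outside the nephron lineage, numbered 626, 39, 26, 5 and 43 in the 5 libraries, and their share at 28 d was 1.17 times that without injury (0.742 to 1.86). For every 100 endothelium-rule nuclei there were 14.2 supported nuclei in the GFP negative library and 7.69, 19.2, 40.0 and 62.8 in the GFP positive libraries without injury and at 64 h, 96 h and 28 d. The ratio at 96 h rests on 2 supported and 5 endothelium-rule nuclei. The part of the gate and of kidney composition in the 28 d share was not tested.

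**Figure D3:**
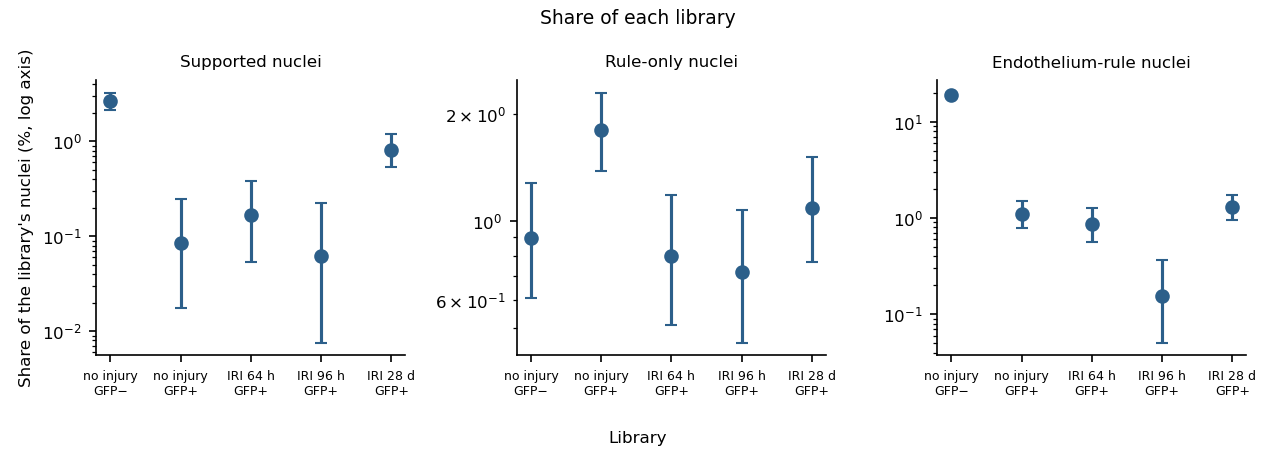
Share of each library's nuclei (vertical log axis, in %) that were supported, rule-only or endothelium-rule nuclei, with 95% Clopper-Pearson intervals for counting error only. Supported nuclei are at 0.818% at 28 d against 0.0625% to 0.166% in the other GFP positive libraries, while rule-only nuclei are at 0.718% to 1.80% in all 5.

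Supported nuclei of the GFP negative library were led, outside the rule, by genes of phagocytes. Their levels are descriptions: Msr1, Lyz2, Spi1, Tyrobp and Gzma below, and Inpp5d at 28 d, are among the 111 genes that chose the supported nuclei. Msr1, the class A scavenger receptor that takes up modified lipoproteins, was at 322 CPM against 0.807 CPM in unselected nuclei, a ratio of 399 (118 to 2094). Lyz2, lysozyme M of myeloid cells, was at 579 CPM against 1.88 CPM (ratio 307, 135 to 819). Arhgap30, a GTPase-activating protein, was at 418 CPM against 2.15 CPM (ratio 194). Further leading genes were the C-type lectin gene Mgl2 (ratio 143), Cybb of the phagocyte NADPH oxidase (142), the transcription factor gene Spi1 (139) and the adaptor gene Tyrobp (139). Lymphocyte RNA was there too: Gzma, a granzyme of cytotoxic lymphocytes, had 10 UMIs, all in 2 nuclei.

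At 28 d fewer genes could lead, since a leading gene needed at least 10 UMIs: 499 genes reached that in the 27 supported nuclei, against 1409 in the 89 of the GFP negative library. Ms4a6c, a membrane protein gene of monocytes and macrophages, was at 409 CPM against 1.09 CPM in unselected nuclei (ratio 376, 116 to 1583). Pld4, a lysosomal exonuclease of myeloid cells (12:112760655-112768990), was at 597 CPM against 2.45 CPM (ratio 244, 105 to 613). Pid1, an adaptor of lipoprotein receptors, was at 1446 CPM against 10.3 CPM (ratio 140). Itga4, an integrin chain of blood-borne cells, had a ratio of 90.9, and Inpp5d, named above, one of 91.7. Lyz2 and Ms4a6c were among the 15 leading genes of both libraries, which is 2 of 15 of each list. Msr1, with 3 UMIs at 28 d, could not enter there, so the overlap is bounded by depth. Among 30 leading genes 4 of 30 were shared, with the antisense gene Gm26740 and the inhibitory receptor gene Lilrb4a added.

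Lists of narrower cell types gave the make-up of the supported nuclei, with a nucleus counted for a list at 2 or more UMIs of its genes that lay under 5 CPM in unselected nuclei. These genes are among the 111 that chose the supported nuclei, so the counts and their distance from other nuclei are descriptions. In the GFP negative library 38 of 89 supported nuclei were counted for the macrophage list (among others Lyz2, Cd68 and Cd163), 12 for the dendritic list (among others Flt3 and Itgax), 5 for the monocyte list, 9 for the T and NK cell list, 7 for the B and plasma cell list and 0 for the neutrophil and mast cell list. Of 626 endothelium-rule nuclei of that library the same lists counted 4, 2, 10, 0, 1 and 0. At 28 d 13 of 27 supported nuclei were counted for the macrophage list, 3 for the dendritic and 3 for the monocyte list, and none for the lymphoid or granulocyte lists. A nucleus could count for several lists: 16 of the 89 supported nuclei without injury had lymphoid and 49 had myeloid UMIs at this level, 4 had both and 28 had neither. At 28 d 19 of 27 had myeloid UMIs and 8 had neither.

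Among all selected nuclei and with all list genes, the macrophage list counted 57 of 119 (47.9%) in the GFP negative library and 28 of 63 (44.4%) at 28 d. That count at 28 d equals the level of the endothelium-rule nuclei of the same library within counting error, since 18 of 43 of them (41.9%) were counted too. In the GFP negative library 28 of 626 (4.47%) were. The full B and plasma cell list counted 273 of 626 endothelium-rule nuclei (43.6%), so its full form is not read as B cells here.

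The comparison of the 28 d library with the uninjured GFP negative library asks how leukocyte nuclei of a kidney 28 d after ischaemia differ from those of an uninjured one, with the limit on the gate given above. A gene counted as higher or lower when its CPM over the summed nuclei differed at least 2-fold, among genes with at least 10 UMIs over both sums. For the log2 ratios 10 CPM were added to each level. Over all selected nuclei 604 of 4734 genes were higher at 28 d (12.8%) and 911 were lower (19.2%), with a median log2 ratio of -0.08. Since 36 of the 63 selected nuclei at 28 d were rule-only, the values below are for the supported nuclei, 89 without injury and 27 at 28 d. There 344 of 2381 genes were higher (14.4%) and 582 were lower (24.4%), with a median of -0.16. TMM scaling gave 428 higher and 483 lower, and UMIs per nucleus gave 873 higher and 235 lower with a median of 0.56.

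Depth sets the scale of these ratios. Supported nuclei had 699 UMIs each without injury and 1178 at 28 d, a ratio of 1.69, and a gene at a constant number of UMIs per nucleus therefore has a ratio under 1 by total UMIs. The 111 leukocyte genes had 8.15 UMIs per supported nucleus without injury and 7.48 at 28 d, a ratio of 0.918 per nucleus (0.782 to 1.07) and of 0.545 by total UMIs (0.464 to 0.638). Since supported nuclei needed at least 3 UMIs of these genes in both libraries, the level per nucleus is partly set by that choice. The proximal tubule list had 2.51 times the level at 28 d by total UMIs (2.18 to 2.90) and 4.24 times per nucleus, and 7 of its 14 measured genes were higher and 0 lower. Both ratios are given below for this reason, and the part of tubule RNA in them was not tested.

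Signalling and transcription genes of myeloid cells were lower by total UMIs and level per nucleus. Of 26 measured genes of this list 1 was higher and 10 were lower at 28 d, beside 14.4% and 24.4% of all genes, with a median log2 ratio of -0.91 against -0.16. Their sum had a ratio of 0.585 (0.509 to 0.669) by total UMIs and 0.985 (0.859 to 1.13) per nucleus. Of the 32 genes of the list 21 are among the 111 that chose the nuclei, so the level per nucleus is partly set by the choice. Arhgap15, a Rac GTPase-activating protein, had 151 UMIs without injury and 41 at 28 d (0.530 by total UMIs). The Src-family kinase gene Lyn had 81 and 20 (0.482), and the lymphoid and myeloid transcription factor gene Ikzf1 had 39 and 9 (0.451, and 0.761 per nucleus). Lcp1, the actin bundler L-plastin, was lower on both scales, with 48 and 5 UMIs, 0.204 by total UMIs and 0.343 per nucleus (0.106 to 0.858). In supported nuclei with under 1% of UMIs in the proximal tubule list Lcp1 was at 0.329 by total UMIs, with an interval that includes 1 (0.0654 to 1.02). Inpp5d stood on the other side, with 39 and 23 UMIs, a ratio of 1.15 by total UMIs and 1.94 per nucleus. Runx1, a transcription factor gene, had 43 and 17 UMIs (0.773 by total UMIs, and 1.26 in those nuclei).

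Genes of antigen presentation were lower by total UMIs, and a few of them also per nucleus. Of 3 measured genes of the MHC class II list, outside the rule, all 3 were lower, beside 24.4% of all genes, and the list's sum had a ratio of 0.400 (0.256 to 0.604) by total UMIs and 0.674 (0.432 to 1.02) per nucleus. H2-Ab1 had 53 UMIs in the 89 nuclei without injury and 13 in the 27 at 28 d, and H2-Eb1, the other class II beta chain, had 34 and 5. Their ratios were 0.480 and 0.288 by total UMIs and 0.809 (0.404 to 1.50) and 0.485 (0.148 to 1.25) per nucleus, so per nucleus neither interval excludes 1. The costimulatory ligand gene Cd86 (16:36603869-36666081, minus strand) had 25 UMIs and 1 UMI, a ratio of 0.0782 (0.00191 to 0.478) by total UMIs and 0.132 (0.00321 to 0.805) per nucleus. In nuclei with under 1% of UMIs in the proximal tubule list the ratio of Cd86 by total UMIs was 0.202, with an interval that includes 1 (0.00491 to 1.23), and that of Cd74 was 0.319 (0.101 to 0.776). There H2-Ab1 was at 0.720 (0.275 to 1.60), H2-Eb1 at 0.672 (0.172 to 1.91) and H2-Aa at 0.951 (0.431 to 1.89), so in these nuclei the class II chains had no detectable difference by total UMIs either. Cd74 had 87 UMIs and 8 UMIs, with ratios of 0.180 (0.0753 to 0.370) and 0.303 (0.127 to 0.624). H2-Aa was level per nucleus, at 57 and 17 UMIs with a ratio of 0.983, although by total UMIs it was 0.583. Cd74 and H2-Aa belonged to the rule, so their ratios are descriptions. Of the 12 genes of the MHC class II list 9, with H2-Eb1, helped to choose the supported nuclei, as did Cd86. The ratios of the list, H2-Eb1 and Cd86 are thus partly set by the choice. H2-Ab1 did not take part in it. After thinning each nucleus to 500 UMIs, Cd74 had a UMI in 18 of 48 without injury (37.5%) and 3 of 21 at 28 d (14.3%).

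The leukocyte markers of the rule differed less per nucleus. Ptprc had 95 UMIs without injury and 18 at 28 d, a ratio of 0.371 (0.211 to 0.618) by total UMIs and 0.625 (0.355 to 1.04) per nucleus. Dock2 had 76 and 19, with 0.489 (0.279 to 0.817) and 0.824 (0.471 to 1.38). Slc9a9, an endosomal sodium and proton exchanger gene, is no rule gene and was lower on both scales, with 75 and 10 UMIs and ratios of 0.261 (0.120 to 0.507) and 0.440 (0.203 to 0.854). In nuclei with under 1% proximal tubule list Slc9a9 was at 0.432 (0.153 to 0.988), Ptprc at 0.356 (0.127 to 0.807) and Dock2 at 0.749 (0.358 to 1.42), all by total UMIs. Cx3cr1 differed with the nuclei counted: over all selected nuclei it was 4.85 (2.91 to 8.45, 20 and 67 UMIs), and over supported nuclei it was 1.63 (0.393 to 6.41, 6 and 5 UMIs).

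Complement and phagocytosis genes were level per nucleus as a sum, with a ratio of 0.997, and at 0.591 (0.438 to 0.789) by total UMIs. Of 6 measured genes 0 were higher and 4 were lower by total UMIs, beside 14.4% and 24.4% of all genes, with a median log2 ratio of -1.08 against -0.16. Elmo1, which works with Dock proteins in engulfment, had 76 and 17 UMIs (0.437). Fcgr2b, the inhibitory Fc receptor for IgG, had 16 UMIs without injury and 0 at 28 d, which is at least 2.73-fold lower by total UMIs with 3 UMIs over the group as the floor.

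Macrophage genes went different ways, so the list has no single direction. Of 12 measured genes 1 was higher and 4 were lower at 28 d, beside 14.4% and 24.4% of all genes. The median log2 ratio was -0.59 against -0.16 over all genes. The list's sum had a ratio of 0.804 (0.620 to 1.04) by total UMIs and 1.36 (1.05 to 1.75) per nucleus. Mertk, a receptor for apoptotic cells, had 12 UMIs in each library, a ratio of 1.96 by total UMIs. Maf, a transcription factor gene of resident macrophages, had 24 and 18 (1.47). Cd84, a SLAM-family receptor gene, had 8 and 10 (2.44). On the other side, Msr1 had 20 and 3 UMIs (0.293) and the inhibitory receptor gene Lair1 had 17 and 2 (0.230). Lyz2 had 36 and 17 (0.923). The monocyte chemokine receptor gene Ccr2 had 7 and 8 UMIs, a ratio of 2.23 (0.708 to 7.24) by total UMIs and 3.77 (1.19 to 12.2) per nucleus. The monocyte list as a sum was at 0.761 by total UMIs and 1.28 per nucleus, and the dendritic list at 0.506 and 0.852. The genes that chose the supported nuclei include 18 of 20 of the macrophage list, 14 of 15 dendritic and all 12 monocyte genes. The ratios of these lists and of Cd84, Msr1, Lair1, Lyz2 and Ccr2 are thus partly set by the choice. Mertk and Maf did not take part in it.

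Lipid and lysosome genes, summed over the list, were higher at 28 d in supported nuclei on both scales. Of 6 measured genes 3 were higher and 0 lower, beside 14.4% and 24.4% of all genes, with a median log2 ratio of 0.89 against -0.16. The sum had 96 UMIs without injury and 120 at 28 d, a ratio of 2.44 (1.85 to 3.23) by total UMIs and 4.12 (3.12 to 5.45) per nucleus. A single 28 d nucleus held 36 of the 120 UMIs, and without it the ratio by total UMIs was 1.86 (1.37 to 2.52). In rule-only nuclei 3 of 4 measured genes of the list were higher and 1 lower, with a median of 1.47. Over all genes measured in rule-only nuclei 448 of 2550 were higher and 422 lower, with a median of 0.06. The list's sum in rule-only nuclei had 75 and 56 UMIs, a ratio of 0.869 (0.603 to 1.24) by total UMIs and 0.622 per nucleus. The higher count of single genes was thus also seen in rule-only nuclei, and the higher sum was not. Apoe, the apolipoprotein of macrophage lipid efflux (7:19696109-19699188, minus strand), had 25 UMIs in 17 of 89 nuclei and 48 UMIs in 13 of 27 nuclei, a ratio of 3.75 (2.27 to 6.35) by total UMIs and 6.33 (3.83 to 10.7) per nucleus. Without the nucleus with 19 of those 48 UMIs it was 2.47 (1.40 to 4.40), and in the 83 and 13 supported nuclei with under 1% of UMIs in the proximal tubule list it was 5.64. In the endothelium-rule nuclei Apoe had 65 UMIs without injury and 1 at 28 d (0.0963), and in nuclei of neither kind the ratio was 1.11.

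The lysosomal protease gene Ctsd (cathepsin D; 7:142375911-142388038, minus strand) had 4 and 23 UMIs, a ratio of 11.2 (3.84 to 44.7), and 17 of the 23 UMIs lay in 3 nuclei. Without the nucleus with most of them the ratio was 7.45 (2.34 to 31.1), in nuclei with under 1% of UMIs in the proximal tubule list it was 26.9 (7.69 to 144), and in nuclei of neither kind Ctsd was at 1.74. Ctsb (cathepsin B) had 9 and 12 UMIs, a ratio of 2.61 (1.01 to 7.01), against 2.50 in nuclei of neither kind, so its ratio was not set apart from theirs. Spp1 (osteopontin) had 18 and 11 (1.20). Pld4 had 16 UMIs and 19 UMIs, a ratio of 2.32 (1.13 to 4.83) against 0.372 in nuclei of neither kind, and Nav2, a cytoskeletal gene, had 9 and 23, a ratio of 5.00 (2.23 to 12.3) against 0.375. Without the 28 d nucleus with most of their UMIs the ratios were 2.00 (0.938 to 4.28) for Pld4 and 3.51 (1.44 to 9.10) for Nav2.

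**Figure D4:**
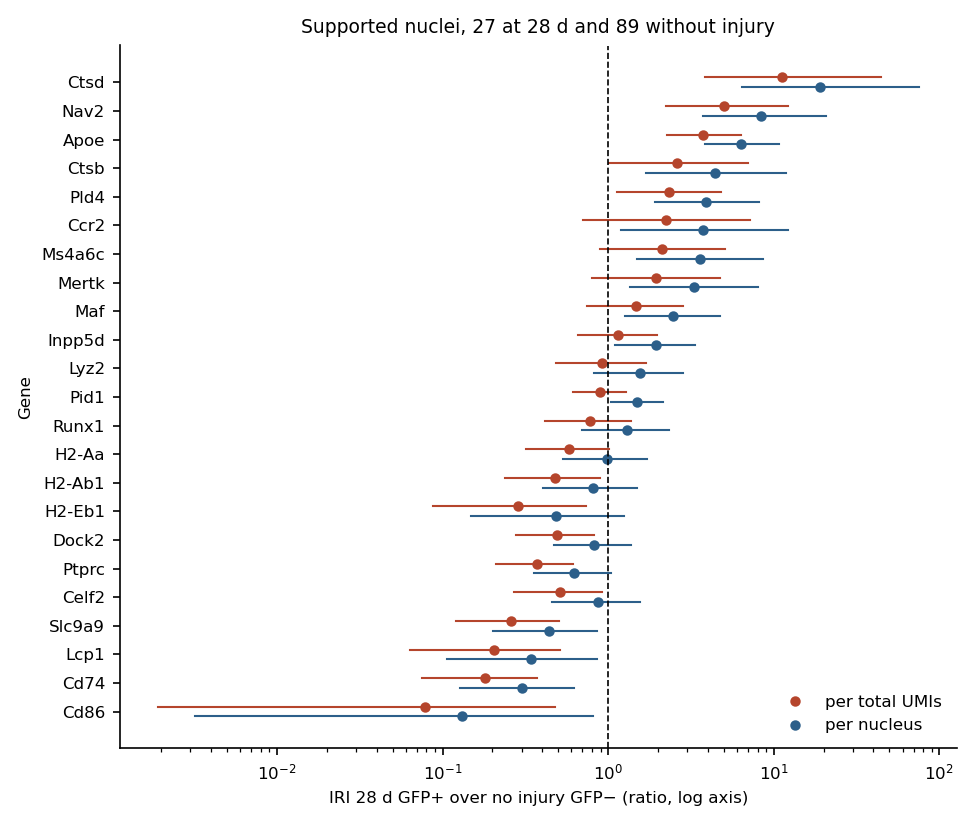
Ratio of 28 d to uninjured GFP negative levels in supported nuclei (horizontal log axis) for 23 genes (vertical axis), by total UMIs in red and per nucleus in blue, with 95% Poisson intervals for counting error only. Ctsd, Nav2, Apoe and Pld4 lie above 1 and Cd86, Cd74, Lcp1 and Slc9a9 below 1 on both scales, while most other intervals below 1 by total UMIs include 1 per nucleus. Of the genes named here, Cd86 and Cd74 helped to choose the nuclei.

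Summed UMIs of the lymphocyte lists were lower at 28 d on both scales, with intervals that take UMIs as independent. The T and NK cell list had a ratio of 0.181 (0.0565 to 0.449) by total UMIs and 0.305 (0.0953 to 0.757) per nucleus. Of its 2 measured genes 0 were higher and 2 lower, beside 14.4% and 24.4% of all genes. The B and plasma cell list had 0.233 (0.0719 to 0.588) and 0.392 (0.121 to 0.990), also with 2 lower of 2. Counted by nuclei, with the list genes under 5 CPM, the intervals overlap. The T and NK cell list counted 9 of 89 (4.73 to 18.3%) against 0 of 27 (0 to 12.8%). The B and plasma cell list counted 7 of 89 (3.22 to 15.5%) against 0 of 27 (0 to 12.8%). The full B and plasma cell list is not read as B cells, and its sum was also lower in endothelium-rule nuclei, at 0.154 by total UMIs. Bank1, a scaffold of B cell receptor signalling, had 20 UMIs without injury and 0 at 28 d, at least 3.41-fold lower by total UMIs with the same floor. Skap1, an adaptor of T cell adhesion, had 14 UMIs and 1 UMI. The genes that chose the supported nuclei include 18 of 20 of the T and NK cell list. They also include 8 of 14 of the B and plasma cell list, with Bank1. The ratios of both lists and of Bank1 are thus partly set by the choice. Skap1 did not take part in it. Repair genes as a sum were at 0.831 by total UMIs and 1.40 per nucleus, and inflammatory genes at 0.587 and 0.989, so the direction of the repair list turned with the scale.

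**Figure D5:**
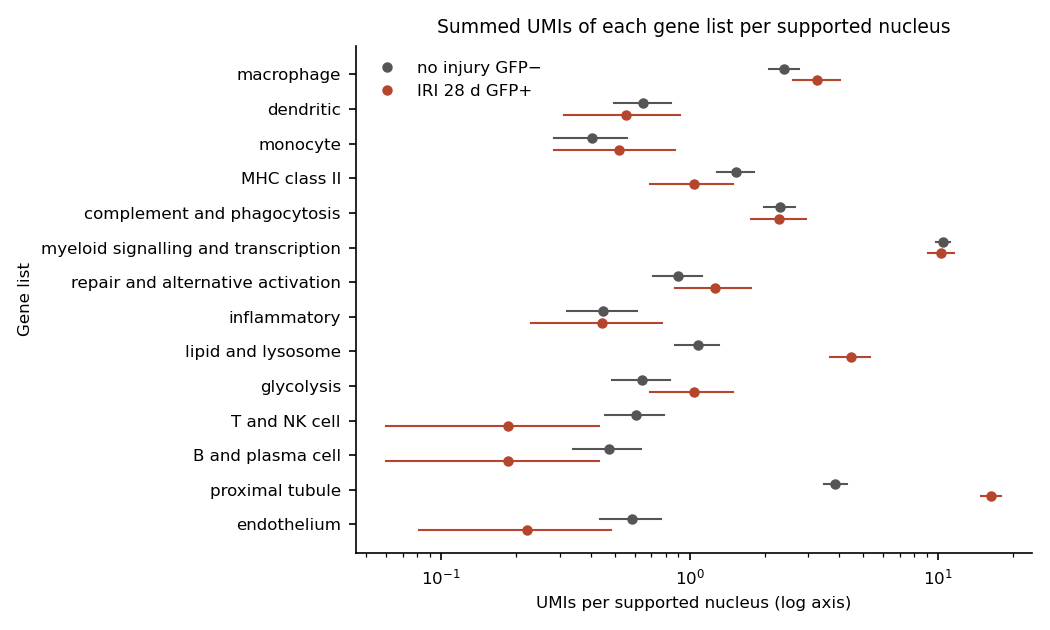
Summed UMIs of each gene list (vertical axis) per supported nucleus (horizontal log axis) in the uninjured GFP negative (grey) and 28 d (red) libraries, with 95% Poisson intervals for counting error only. The lipid and lysosome and the proximal tubule lists are higher at 28 d, at 4.12 and 4.24 times, the lymphoid lists are lower, and the myeloid signalling and complement lists coincide. Genes of the lymphoid and myeloid signalling lists helped to choose the nuclei, so the levels of these lists are partly set by the choice.

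The genes furthest higher at 28 d were mostly not leukocyte genes. Of the 10 furthest higher at 28 d in supported nuclei, the transporter genes Slc5a12 (12.4) and Slc13a1 (11.0) belong to the proximal tubule list. Mid1, a ubiquitin ligase gene, was at 7.95 in supported, 9.42 in endothelium-rule and 8.83 in other nuclei. Ndrg1, a hypoxia-responsive gene, was at 8.24, 6.68 and 4.74, and Bnc2, a zinc finger gene, at 16.9, 13.8 and 4.42. These 3 genes thus had high ratios in all 3 kinds of nucleus, except that in supported nuclei with under 1% of UMIs in the proximal tubule list Bnc2 was at 0 UMIs at 28 d, with an interval of 0 to 197 for its ratio that decides nothing. The 10 furthest lower in supported nuclei included Bank1 and Fcgr2b, named above. Mecom, a transcription factor gene also among them, had 26 UMIs without injury and 0 at 28 d in supported nuclei. Mecom was also lower in endothelium-rule (0.297) and other nuclei (0.152).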

How the data were processed

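Single nuclei were captured on the 10x Chromium system and sequenced, per the labels' protocols. The submitters' processing notes name bcl2fastq 2.17, STAR 2.5.1b, Cell Ranger 2.1 and the build mm10, and the series' design text a pre-mRNA reference, so intronic reads count. How barcodes were called is not given in the sources used here. The authors deposited raw UMI counts for 27998 genes per barcode and library, and all values here were computed from these counts. Barcodes under 200 genes (306 at 96 h and 1 in another library) were left out. Counts of the nuclei of a class were summed within a library and scaled to CPM or divided by the number of nuclei. Genes were named by a rule: the rule genes, the 15 leading genes per library with at least 10 UMIs, the 10 furthest higher and lower with at least 15 UMIs, and list genes with at least 10 UMIs. Nav2, Slc9a9, Pid1, the genes leading rule-only nuclei and the search letters were chosen after their values were seen, as was the division into supported and rule-only nuclei. Members and lists were chosen with earlier results of these data known. Without replicates the deposited libraries allow no p-value. Alternatives covered the gene minimum, the rule, thinning, scaling (TMM of edgeR 4.0.16 in R 4.3.3), low counts and tubule RNA. Scripts used Python 3.11.15, numpy 2.4.6, scipy 1.17.1 and matplotlib 3.10.9 and were tested on simulated data. Positions of 424 of 424 named genes came from an annotation of the same build, and promoters from RefSeq. A few genes that the naming rule picks are not reported here.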

Additional observations from a re-analysis of the deposited data

How the results depend on the processing

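No paired analysis was possible because each group was 1 library and the labels give no replicate numbers. Shares of selected nuclei are given below in the order GFP negative, then GFP positive without injury, at 64 h, 96 h and 28 d; the causes of the moves were not tested. They stayed within the counting interval without Cd74 and with at most 10% mitochondrial UMIs. With at least 400 genes the GFP negative and 96 h shares were 2.86% and 1.32%. They were 2.37%, 0.656%, 0.332%, 0.250% and 0.818% with at least 3 immune UMIs, and 2.88%, 1.05%, 0.365%, 0.281% and 1.18% with 2 different immune genes. Thinned to 500 UMIs they were 1.49%, 0.171%, 0.169%, 0.365% and 0.663%. Settings chosen after seeing the data were thinning to 300 UMIs (2.07%, 0.0855%, 0.0332%, 0.272% and 0.394%), everything on supported nuclei, and the trimmed lists. With a support limit of 2 UMIs the shares were 2.85%, 0.143%, 0.199%, 0.0625% and 0.909%, with 3 they were 2.67%, 0.0855%, 0.166%, 0.0625% and 0.818%, and with 5 they were 2.13%, 0.0855%, 0.133%, 0.0625% and 0.667%.

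Genes higher and lower at 28 d numbered 604 and 911 of 4734 measured genes over selected nuclei. The counts were within 1.5 times of these under TMM, stricter immune rules and without lymphoid nuclei. With at least 3 immune UMIs only 2533 genes were measured, with 2 different immune genes 3338, and without lymphoid nuclei 4395. The pseudocount does not enter the calls, so a pseudocount of 1 CPM could not change the counts. The number of measured genes changed with the setting, so the counts cannot be compared without it. With no filter 2685 and 4951 of 13483 genes were higher and lower, and with at least 30 UMIs 153 and 184 of 1462. In nuclei under 1% proximal tubule list 234 and 568 of 1909 were, and after thinning 283 and 328 of 1437. In supported nuclei 344 and 582 of 2381 were. In supported nuclei under 1% tubule list 193 of 1414 genes were higher and 416 lower. Of the 2381 genes of all supported nuclei 483 were lower under TMM, and 873 were higher and 235 lower per nucleus. Directions turned from those over selected nuclei in 8 cases. Under 1% tubule list the ratio was 1.31 for the dendritic list, 1.22 for C1qa, 1.64 for Pid1 and 0 for Bnc2, the last with an interval of 0 to 197 that decides nothing. Per nucleus it was 1.28 for the monocyte list, 1.03 for Csf1r and 1.50 for Pid1. Without the top 28 d nucleus Cx3cr1 was at 0.343.

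With 1 UMI in place of 2, the macrophage, dendritic, monocyte, T and NK, and B lists counted 74.8%, 23.5%, 18.5%, 15.1% and 15.1% of selected GFP negative nuclei, and the first 3 counted 71.4%, 19.0% and 14.3% at 28 d. Thinned, the macrophage list counted 22.2% and 16.1%, the B list 2.78% and 0%, and the dendritic and T and NK lists 0% at 28 d. With trimmed lists the macrophage list counted 31.9% and 22.2%, and the lymphoid lists 0% at 28 d. The proximal tubule list held 0.784%, 2.50%, 1.25%, 1.50% and 1.70% of UMIs with at least 3 immune UMIs, and 0.551%, 1.99%, 0.700%, 0% and 1.39% in supported nuclei. With 2 to 5 supported nuclei in 3 libraries and 27 at 28 d, depth limits every value of single genes.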

Other observations

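Nuclei outside the selection with at least 6 UMIs of the 111 leukocyte genes numbered 25 in the GFP negative library, 7 at 64 h and 3 at 28 d, and 0 in the other 2 libraries. In the GFP negative library 2 of the 25 had at least 2 UMIs of the B and plasma cell list and 4 had at least 2 of the T and NK cell list. Lymphocyte nuclei without macrophage or dendritic RNA are not what the rule looks for. At 64 h Runx1 was the gene with most of these UMIs. None of the 7 at 64 h had lymphoid UMIs at that level, and all 7 had an immune sum under 2.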
